A study of Mus musculus with 4 samples.

Results

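The 56 genes described here act in the G2 phase and in mitosis: cyclins and CDK1, mitotic kinases, kinetochore and checkpoint proteins, kinesins, cytokinesis factors and condensins. They were taken from a list of mouse symbols, mapped to Entrez identifiers, and all 56 of 56 were listed among the 18872 genes of the deposited tables and passed the filter on low counts, which left 13608 genes. RNA was sequenced from primary epithelial cells of the mouse colon after 3 days of 2% dextran sulfate sodium (DSS) in mice, an agent that damages the epithelium of the colon. Mice labelled EZH2-IEC-/- (knockout), which lack the Polycomb histone methyltransferase Ezh2 in intestinal epithelial cells, gave 2 libraries, and wild-type mice gave 2 libraries. All 4 libraries come from DSS-treated mice, so every difference below is one between the knockout and wild-type libraries under DSS. Untreated mice were not analysed here. The labels name neither the promoter that drove the deletion nor the number of animals behind a library, separate or pooled, so the p-values refer to variation among these 4 libraries, and that variation may be technical.

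Cyclin B and CDK1 are switched on at entry into mitosis. Chromosomes then condense, and a bipolar spindle of microtubules attaches to each chromosome at its kinetochore. A checkpoint holds the cell until every kinetochore is attached, and the anaphase promoting complex then marks securin and cyclin B for destruction, so that sister chromatids part and the cell divides. Most of these transcripts reach their highest level in G2 or mitosis. In the colon the dividing cells lie in the lower crypt, below the differentiated cells of the surface. In bulk RNA, fewer cells of a type and less RNA per cell cannot be told apart.

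Estimated counts summed to 5399949 and 5446998 in the knockout libraries and to 5037367 and 5236519 in the wild-type libraries. Ezh2 itself was counted at 86 and 83 in knockout and at 105 and 102 in wild type, and its log2 fold change of -0.27 ± 0.17 missed the threshold (adjusted p = 0.217); the deleted exons are not named in the labels, so whether these reads fall in them was not tested. Fold changes here are log2 of knockout over wild type from edgeR's quasi-likelihood test, ± the standard error, and a gene was called at an adjusted p under 0.05 (Benjamini-Hochberg over all 13608 genes). Over all genes tested 43.7% were called, 23.0% higher and 20.8% lower in knockout. Higher genes made up 52.5% of all calls with TMM scaling, 42.4% with library totals alone, 49.6% with limma on quantile normalized FPKM (fragments scaled to gene length and library size) and 35.9% with limma on FPKM rescaled to equal totals. The median log2 fold change of all genes was -0.002 with TMM, -0.103 with library totals and -0.147 with rescaled FPKM.

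The mitosis and spindle genes were mostly higher in the knockout. Of the 56 members, 45 rose and 0 fell, 80.4% against the 23.0% of all tested genes that were called higher, and 11 did not pass. Under 10 other ways of scaling, filtering or testing the same 4 libraries, each of which tested all 56 members without a block, between 32 and 45 rose and 0 fell. The median log2 fold change of the members was 0.79, a 1.73-fold difference, with quartiles at 0.50 and 1.11, against -0.002 for all genes. A log2 fold change of at least 1 was called for 16 members, while 6.90% of all tested genes were called higher by that much. The FPKM of both knockout libraries lay above both wild-type libraries for 50 members, namely the 45 that rose and 5 that did not pass, and for 30.4% of all tested genes. The summed FPKM of the 55 members other than the abundant Ptma was 1226.4 and 1131.7 in the knockout libraries, against 690.5 and 710.9 in the wild-type libraries. The members were chosen with earlier results of these libraries known, so these counts describe the list and do not test it.

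**Figure D1:**
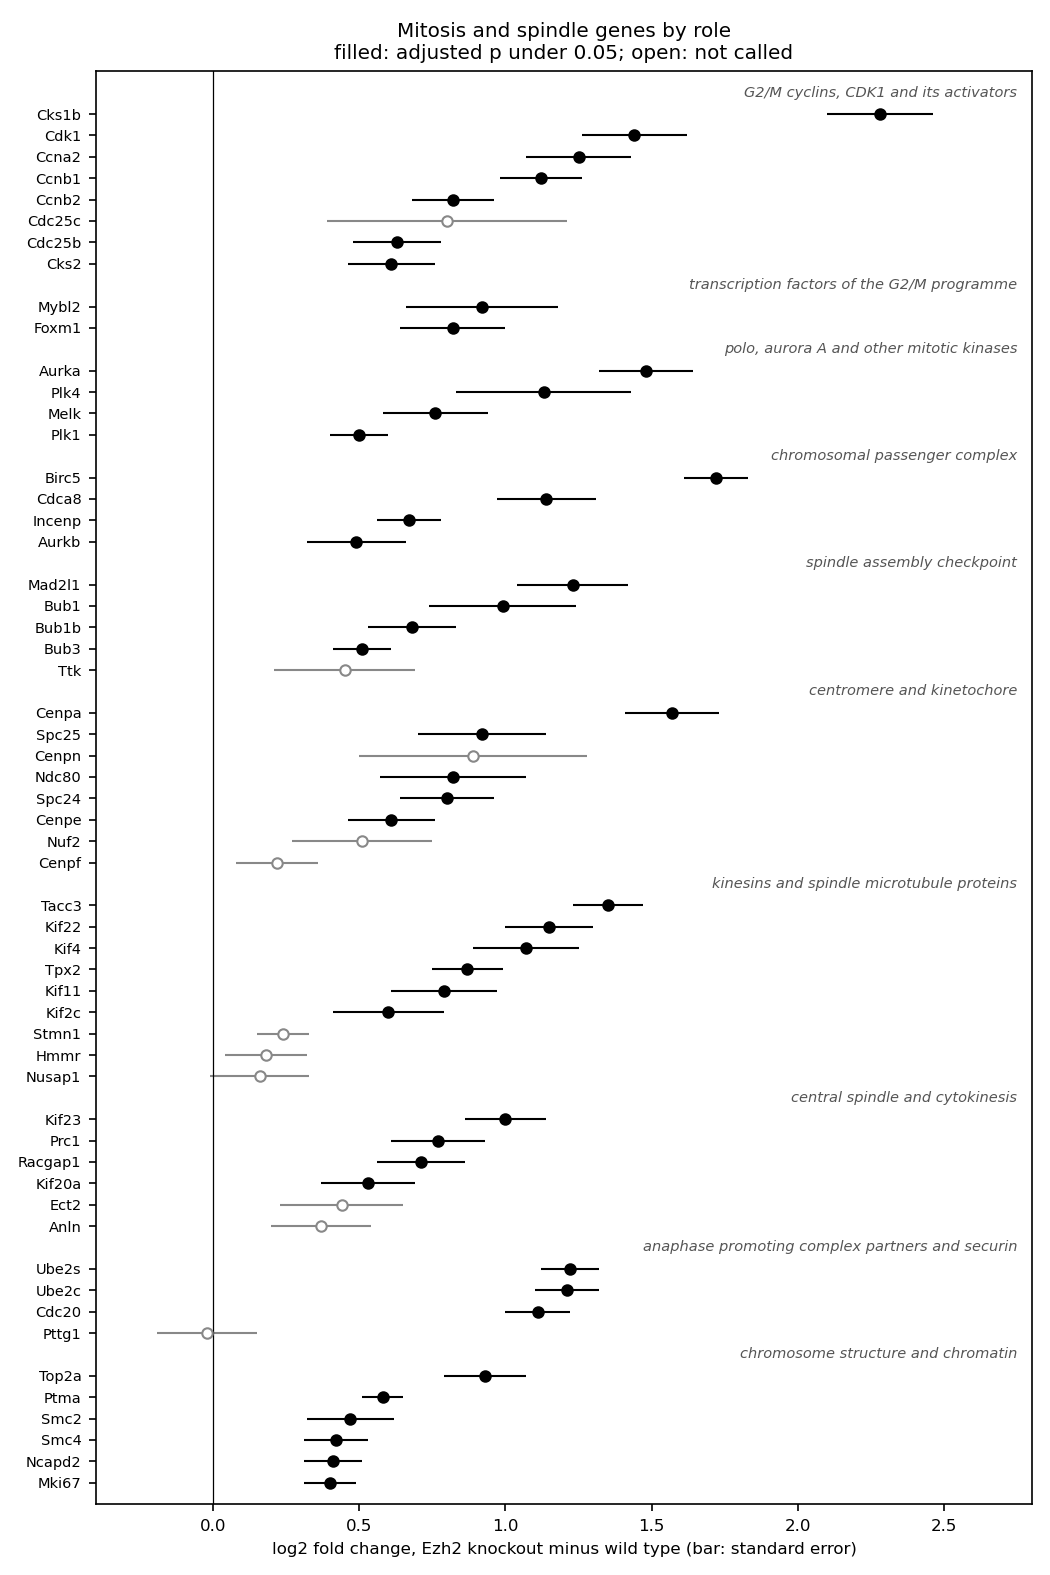
Each point is the log2 fold change (knockout minus wild type, horizontal axis) of 1 of the 56 mitosis and spindle genes, grouped by role, with its standard error as a bar; filled points passed the test at an adjusted p under 0.05 and open points did not. Cks1b at 2.28, Birc5 at 1.72 and Cenpa at 1.57 lie farthest right, and Pttg1 at -0.02 is the single point left of 0.

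The rise was seen in both replicate numbers. Between the libraries numbered 1 the median log2 ratio of knockout over wild type was 0.88, with 56 of 56 members above 0, and between those numbered 2 it was 0.69, with 55 of 56 above 0. Transcript lists per gene differed for 0 genes between files of the same number and for 573 to 577 genes between files of different numbers, among them the members Bub3, Spc25 and Tacc3. The knockout libraries were not alike. Knockout replicate 1 was higher than knockout replicate 2 for 39 of 56 members, with a median log2 ratio of 0.13 against 0.00 over all genes, while wild-type replicate 1 was higher than wild-type replicate 2 for 29 of 56. Cdk1, for example, had 17.4 and 12.4 FPKM in knockout replicates 1 and 2, against 6.15 and 5.64 FPKM in wild type.

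Promoters of the members were searched for the letters of known cell cycle elements. Genes of this programme are known to carry a cell cycle genes homology region (CHR), bound by the MuvB core with its DREAM and MYBL2 partners, near CCAAT boxes bound by NF-Y. RefSeq promoter windows (GRCm38.p6, 250 bases before to 50 after the start) were at hand for 46 members. The CHR letters TTTGAA or TTCGAA, on either strand, stood in a window of 33 of these 46 members (71.7%), against 21.7% of all 27025 genes of the table, 16.7% of the 10807 tested genes in it and 5 of 22 genes (22.7%) of a DNA replication and S phase list. CCAAT, on either strand, stood in 69.6% of the members, 41.1% of all genes and 59.1% of the S phase genes. Both sets of letters stood together in 63% of the members, 8.61% of all genes and 18.2% of the S phase genes. The letters of an E2F site, GCGCGAAA on either strand, stood in 1 member, Cdk1, in 0.374% of all genes and in 6 of the 22 S phase genes (27.3%). A CHR word and a CCAAT word can share at most 1 end letter, and a match describes letters, not a site. Of the 33 members with CHR letters 27 rose, and of the 13 without them 10 rose. The 5 members of smallest p among those with CHR letters are shown 5′ to 3′ on the strand of the gene, with CHR and CCAAT letters of either strand in capitals.
Cks1b (chr3:89418242-89418541, minus strand): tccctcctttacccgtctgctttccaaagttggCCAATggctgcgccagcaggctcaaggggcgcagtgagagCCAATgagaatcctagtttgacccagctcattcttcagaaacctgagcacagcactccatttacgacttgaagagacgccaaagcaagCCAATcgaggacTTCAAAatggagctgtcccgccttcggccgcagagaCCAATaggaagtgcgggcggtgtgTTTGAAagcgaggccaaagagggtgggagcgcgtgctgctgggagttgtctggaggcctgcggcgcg
Ube2s (chr7:4812291-4812590, minus strand): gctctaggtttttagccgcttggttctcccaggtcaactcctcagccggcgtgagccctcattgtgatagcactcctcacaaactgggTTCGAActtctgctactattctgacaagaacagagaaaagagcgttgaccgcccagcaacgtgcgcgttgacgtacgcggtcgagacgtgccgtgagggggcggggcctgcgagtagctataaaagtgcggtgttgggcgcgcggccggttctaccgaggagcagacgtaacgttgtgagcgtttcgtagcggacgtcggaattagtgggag
Ube2c (chr2:164769679-164769978, plus strand): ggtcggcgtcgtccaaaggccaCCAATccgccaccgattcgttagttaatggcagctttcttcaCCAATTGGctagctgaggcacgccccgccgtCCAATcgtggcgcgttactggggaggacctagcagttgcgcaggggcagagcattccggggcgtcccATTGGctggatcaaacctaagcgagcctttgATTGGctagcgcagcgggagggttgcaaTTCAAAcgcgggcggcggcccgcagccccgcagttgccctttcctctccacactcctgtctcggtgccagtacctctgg
Cdc20 (chr4:118437294-118437593, minus strand): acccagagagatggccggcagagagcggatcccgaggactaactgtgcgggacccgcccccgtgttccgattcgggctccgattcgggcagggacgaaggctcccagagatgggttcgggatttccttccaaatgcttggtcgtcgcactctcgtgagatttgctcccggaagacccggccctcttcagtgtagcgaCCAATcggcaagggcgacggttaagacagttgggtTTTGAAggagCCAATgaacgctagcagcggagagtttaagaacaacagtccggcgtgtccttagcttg
Cenpa (chr5:30666636-30666935, plus strand): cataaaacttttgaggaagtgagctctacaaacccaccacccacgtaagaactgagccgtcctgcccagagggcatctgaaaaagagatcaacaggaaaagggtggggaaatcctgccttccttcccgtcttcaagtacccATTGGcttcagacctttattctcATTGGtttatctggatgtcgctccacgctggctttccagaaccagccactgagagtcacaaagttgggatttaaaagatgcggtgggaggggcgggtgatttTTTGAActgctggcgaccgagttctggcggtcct

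In these windows the CHR letters began 17 and 77 bases before the start of Cks1b, 18 before that of Cdc20, 29 before that of Ube2c, 162 before that of Ube2s and 16 after that of Cenpa. Ube2c held 6 CCAAT words, 2 of them overlapping on opposite strands, Cks1b held 4, Cdc20 and Cenpa held 2 each, and Ube2s held 0. Cks1b, Ube2s, Ube2c, Cdc20 and Cenpa rose by 2.28, 1.22, 1.21, 1.11 and 1.57 on the log2 scale. Birc5 and Tacc3, which rose by 1.72 and 1.35, had no CHR letters in their windows.

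**Figure D2:**
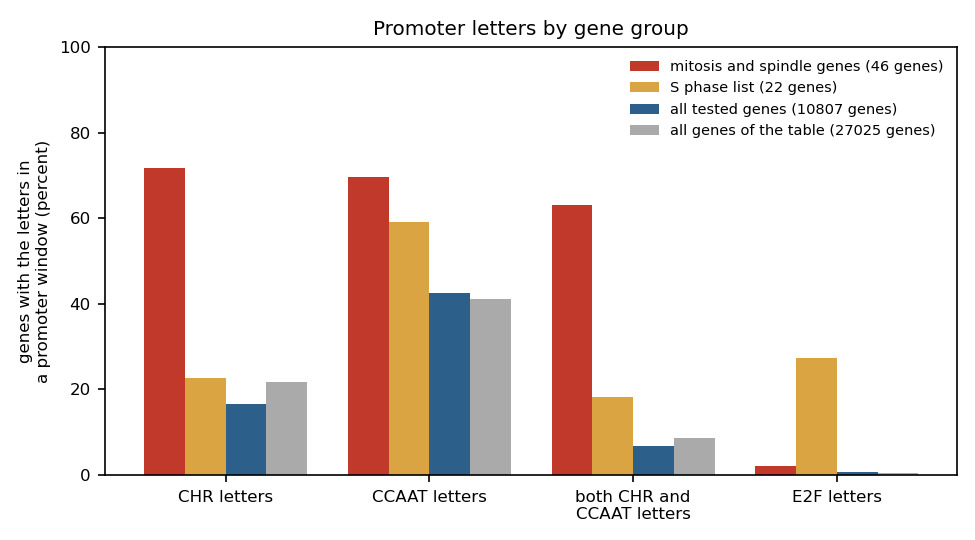
Bars give the percentage of genes (vertical axis) with CHR, CCAAT, both, or E2F letters in a RefSeq promoter window, for the mitosis and spindle genes, the S phase list, all tested genes and all genes of the table. CHR letters stand in 71.7% of the mitosis genes and in 22.7% of the S phase list, while E2F letters stand in 2.17% and 27.3%.

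Among the cyclins, CDK1 and its activators 7 of 8 rose and 0 fell, with a median log2 fold change of 0.97. Cks1b, a small CDK-binding subunit that also serves the ubiquitin ligase SCF-SKP2, was at 40.8 and 42.2 FPKM in knockout, against 8.38 and 9.88 FPKM in wild type. This log2 fold change of 2.28 ± 0.18 (adjusted p = 1.82e-05) was the largest of the 56. Its close paralog Cks2 was at 66.0 and 51.5 FPKM in knockout, against 39.4 and 43.3 FPKM in wild type. Its log2 fold change was 0.61 ± 0.15 (adjusted p = 0.0118), and the call was lost without knockout replicate 1 (adjusted p = 0.0622). In FPKM, Cks1b was below Cks2 in each library. Cdk1, the kinase that drives entry into mitosis, rose by 1.44 and its partners Ccna2, Ccnb1 and Ccnb2 by 1.25, 1.12 and 0.82 on the log2 scale. Cdc25b, a phosphatase that activates CDK1, rose by 0.63. Its relative Cdc25c did not pass (log2 fold change 0.80 ± 0.41, adjusted p = 0.147): it was counted at 35 and 20 in knockout and at 12 and 20 in wild type, and at this depth the groups overlap.

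Both transcription factors of the programme rose, but the call of Mybl2 was less stable. Foxm1, a forkhead factor that activates G2 and mitosis genes, was at 5.38 and 4.67 FPKM in knockout, against 2.78 and 3.32 FPKM in wild type, a log2 fold change of 0.82 ± 0.18 (adjusted p = 0.00582). Mybl2, the MYB protein that joins the MuvB core, rose by 0.92 ± 0.26, from libraries with a wide spread: it had 5.06 and 3.78 FPKM in knockout and 1.97 and 3.02 FPKM in wild type. The call of Mybl2 (adjusted p = 0.018) was lost with limma on log2 FPKM at pseudocounts of 0.01 and 0.1 (adjusted p = 0.0563 and 0.0554). Its log2 fold change was 0.69 without knockout replicate 1 and 0.64 without wild-type replicate 1.

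The 4 mitotic kinases listed outside complexes all rose. Aurka, the centrosome and spindle kinase, was at 18.02 and 15.90 FPKM in knockout, against 6.35 and 6.68 FPKM in wild type, a log2 fold change of 1.48 ± 0.16 (adjusted p = 0.000109). Plk1, which acts from mitotic entry to cytokinesis, was the most abundant of the 4, at 31.4 and 28.8 FPKM in knockout and 22.95 and 22.82 FPKM in wild type. Its log2 fold change of 0.50 ± 0.10 (adjusted p = 0.00369) was the smallest of the 4. Plk4, the kinase of centriole duplication, rose by 1.13 and Melk by 0.76 on the log2 scale.

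All 4 subunits of the chromosomal passenger complex, which corrects faulty attachments and directs cytokinesis, rose, but by unequal amounts. Birc5 (survivin) was at 69.1 and 67.7 FPKM in knockout, against 20.6 and 20.2 FPKM in wild type. It had the smallest p of the 56 members, with a log2 fold change of 1.72 ± 0.11 (adjusted p = 5.09e-06). Cdca8 (borealin) rose by 1.14, the scaffold Incenp by 0.67 and the kinase Aurkb by 0.49 ± 0.17. Aurkb was near the threshold (adjusted p = 0.044), with 10.8 and 12.5 FPKM in knockout and 8.22 and 9.55 FPKM in wild type, and its call was lost in 12 of 17 alternatives.

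**Figure D3:**
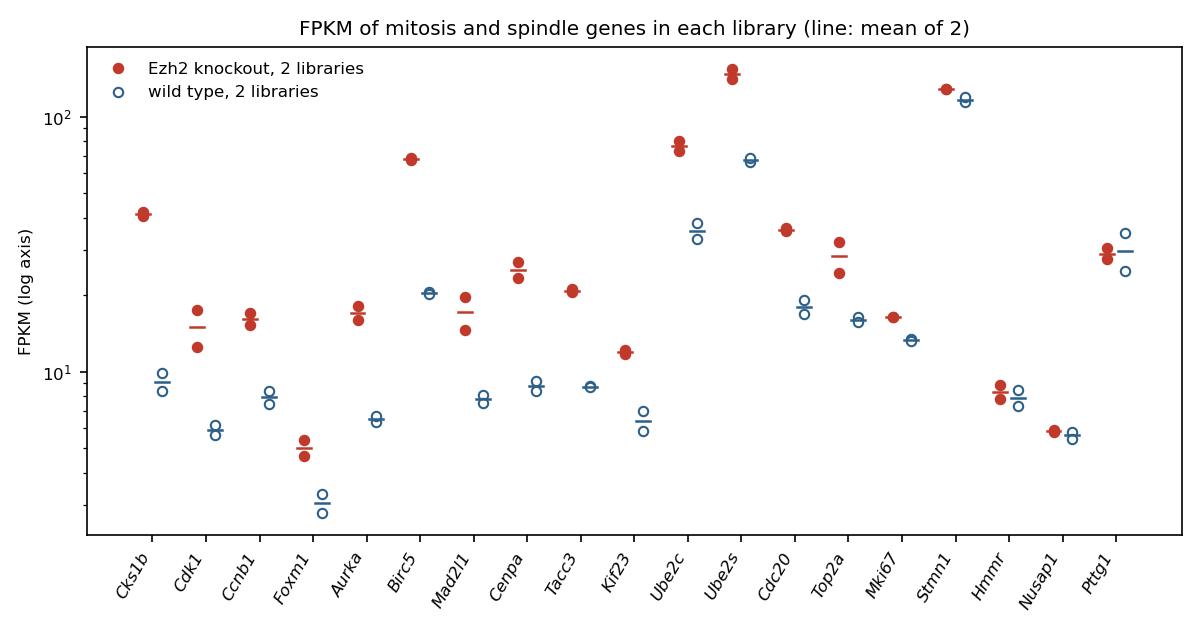
FPKM (vertical log axis) of 19 mitosis and spindle genes, picked with their values known to show large, small and no differences, in each library, with filled points for the 2 knockout libraries, open points for the 2 wild-type libraries and a line at each mean. The knockout points of Cks1b, Birc5, Cenpa and Tacc3 lie well above those of wild type, and the Pttg1 points of knockout lie between those of wild type.

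Of the 5 spindle checkpoint genes, 4 rose. Mad2l1, whose protein binds and holds CDC20, was at 19.7 and 14.5 FPKM in knockout, against 8.08 and 7.55 FPKM in wild type, a log2 fold change of 1.23 ± 0.19 (adjusted p = 0.000879). Bub3, the most abundant of the 5, was at 35.6 and 32.8 FPKM in knockout and 26.9 and 24.5 FPKM in wild type (log2 fold change 0.51 ± 0.10). The kinase Bub1 and the checkpoint protein Bub1b rose by 0.99 and 0.68. Ttk (MPS1), the kinase that starts checkpoint signalling, had 3.23 and 3.86 FPKM in knockout and 3.06 and 2.59 FPKM in wild type and did not pass (0.45 ± 0.24, adjusted p = 0.164), although its groups do not overlap.

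At the centromere and kinetochore 5 of 8 genes rose and 0 fell, and 3 rose without knockout replicate 1 and without wild-type replicate 2. Cenpa, the histone H3 variant that marks centromeres, was at 26.9 and 23.2 FPKM in knockout, against 8.37 and 9.19 FPKM in wild type, a log2 fold change of 1.57 ± 0.16 (adjusted p = 9.58e-05). The 4 subunits of the NDC80 complex, which grips microtubules, had log2 fold changes of 0.92 (Spc25), 0.82 (Ndc80), 0.80 (Spc24) and 0.51 (Nuf2). Spc24, the most abundant, had 22.9 and 30.0 FPKM in knockout and 16.0 and 16.7 FPKM in wild type. Nuf2 had 7.40 and 4.86 FPKM in knockout and 4.62 and 4.68 FPKM in wild type and did not pass (adjusted p = 0.121). Without knockout replicate 2 it was called (0.79, adjusted p = 0.0135). The motor Cenpe rose by 0.61. Cenpf, a large corona protein, had 2.56 and 2.63 FPKM in knockout and 2.16 and 2.61 FPKM in wild type, which overlap (adjusted p = 0.245). Cenpn, a reader of CENP-A nucleosomes, was counted at 19 and 25 in knockout and 14 and 10 in wild type (0.89 ± 0.39, adjusted p = 0.0963).

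Kinesins and spindle proteins split into 6 that rose and 3 that did not pass. Tacc3, a spindle protein that works with the microtubule polymerase CKAP5, was at 21.0 and 20.5 FPKM in knockout, against 8.77 and 8.67 FPKM in wild type, a log2 fold change of 1.35 ± 0.12 (adjusted p = 3.59e-05). The chromokinesins Kif22 and Kif4 rose by 1.15 and 1.07 and the spindle assembly factor Tpx2 by 0.87 on the log2 scale. The bipolar motor Kif11 rose by 0.79 and the depolymerase Kif2c by 0.60. DESeq2 did not call Kif2c (adjusted p = 0.169). Stmn1 (stathmin), which destabilizes microtubules, was the most abundant at 128.5 and 128.6 FPKM in knockout and 114.1 and 119.3 FPKM in wild type. Its difference was small (0.24 ± 0.09, adjusted p = 0.0558), and its groups do not overlap in FPKM. It was called when only genes of identical transcript lists were tested (0.24, adjusted p = 0.0433) and with the replicate number as a block (adjusted p = 0.00421), while its sign turned to -0.03 with limma on quantile normalized FPKM. Hmmr had 7.77 and 8.84 FPKM in knockout and 7.35 and 8.43 FPKM in wild type (0.18 ± 0.14, adjusted p = 0.334). Nusap1, a microtubule bundler, had 5.78 and 5.91 FPKM in knockout and 5.80 and 5.45 FPKM in wild type (0.16 ± 0.17, adjusted p = 0.481). For Hmmr and Nusap1 the groups overlap in FPKM, and the sign turned with limma on FPKM rescaled to equal totals.

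Of the 6 central spindle and cytokinesis genes 4 rose. Kif23, the motor of centralspindlin, was at 11.8 and 12.2 FPKM in knockout, against 5.84 and 7.0 FPKM in wild type, a log2 fold change of 1.00 ± 0.14 (adjusted p = 0.000506). Its partner Racgap1, the most abundant of the 6, had 16.3 and 13.7 FPKM in knockout and 8.62 and 10.9 FPKM in wild type (0.71 ± 0.15). The microtubule crosslinker Prc1 rose by 0.77 and Kif20a by 0.53. Ect2, the exchange factor that centralspindlin recruits, had 7.26 and 4.81 FPKM in knockout and 4.64 and 4.94 FPKM in wild type, which overlap (0.44 ± 0.21, adjusted p = 0.115). Without knockout replicate 2 it was called (0.71, adjusted p = 0.00572). Anln (anillin), a scaffold of the contractile ring, had 3.71 and 3.88 FPKM in knockout and 3.40 and 2.89 FPKM in wild type (0.37 ± 0.17, adjusted p = 0.102), with no overlap.

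The partners of the anaphase promoting complex rose in 3 of 3 cases, and securin did not pass. Ube2s, the ubiquitin-conjugating enzyme that lengthens chains for the complex, was at 153.7 and 140.9 FPKM in knockout, against 66.4 and 69.1 FPKM in wild type, a log2 fold change of 1.22 ± 0.10 (adjusted p = 1.91e-05). Ube2c, the enzyme that starts the chains, and the activator Cdc20 rose by 1.21 and 1.11. The 3 log2 fold changes lie within about 1 standard error of each other. Pttg1 (securin), the inhibitor of separase that the complex destroys, had 27.6 and 30.6 FPKM in knockout, inside the 24.9 and 34.8 FPKM of wild type. Its log2 fold change was -0.02 ± 0.17 (adjusted p = 0.95), and the estimate turned to 0.045 without knockout replicate 1 and 0.19 without wild-type replicate 2. Read counts of Pttg1 were not all whole.

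All 6 genes of chromosome structure and chromatin rose, with a median log2 fold change of 0.44. Ptma (prothymosin alpha), an acidic chromatin protein also made outside mitosis, was the most abundant member at 887.3 and 861.5 FPKM in knockout, against 629.8 and 623.4 FPKM in wild type (0.58 ± 0.07, adjusted p = 0.000239). Top2a, the topoisomerase that untangles sister chromatids, rose by 0.93 ± 0.14. The proliferation marker Mki67 rose by 0.40 ± 0.09, with 16.4 FPKM in each knockout library and 13.5 and 13.2 FPKM in the wild-type libraries. The condensin subunits Smc2, Smc4 and Ncapd2 rose by 0.47, 0.42 and 0.41. With limma on log2(FPKM + 1) 2 of these 6 genes were called, Ptma and Top2a, and with DESeq2 3 were.

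Of the 45 calls, 28 held in each of the 17 alternatives that tested the gene, among them Cks1b, Birc5, Cdk1, Ccna2, Ccnb1, Aurka, Plk1, Cenpa, Tacc3, Top2a, Ube2s, Ube2c and Cdc20. Without 1 library at a time, 31 held in each case. The 14 that did not were Cks2, Spc25, Bub1, Cdc25b, Plk4, Ndc80, Mybl2, Cenpe, Smc4, Ncapd2, Kif20a, Kif2c, Smc2 and Aurkb. Of the 4 fits without a library, the one without wild-type replicate 2 had the fewest members higher, 35. DESeq2, on all 4 libraries, did not call 8 of the 45, namely Aurkb, Cenpe, Kif20a, Kif2c, Ncapd2, Ndc80, Smc2 and Smc4. An estimated count that is not whole can come from reads shared between genes. The counts were whole in all libraries for 41 members, of which 35 rose, and not whole for 15, among them Cks1b, Birc5, Ube2c, Ptma and Stmn1, of which 10 rose. The RefSeq spans of 9 members overlap another listed gene, and the library kit named in the labels is not stated to keep strand. The mean count of the overlapping gene was above that of the member for Cdc20 (Elovl1, 567 against 257), Kif20a (Brd8 with 302 and Cdc23 with 188, against 140) and Cenpn (Cmc2, 90 against 17). It was below that of the member for Aurka (Cstf1, 106 against 120), Ccna2 (Exosc9, 145 against 344), Prc1 (Rccd1, 32 against 172) and Nusap1 (Oip5, 13 against 90), so the values of these 7 are less certain. For Foxm1 and Anln the overlapping genes had mean counts of 0 and 2.

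Other genes of cell division, in 5 lists of 131 genes that hold no member, were called as follows: 36 rose (27.5%) and 7 fell (5.34%), against 23.0% and 20.8% of all tested genes, with a median log2 fold change of 0.31 against -0.002. The share that rose is near that of all genes, and the share that fell is below it. Of 34 further kinetochore, checkpoint and centromere genes 13 rose (38.2%) and 0 fell, against 23.0% and 20.8% of all tested genes. Their median log2 fold change was 0.63. Where all 4 libraries were kept and all 34 were tested, the alternatives called 5 to 17 higher. Among the 12 with a mean FPKM of at least 5, 4 rose. Hjurp or Cenpp was called lower in some alternatives that kept all 4 libraries. Zwint, a kinetochore protein, had 29.9 and 27.5 FPKM in knockout and 17.1 and 17.2 FPKM in wild type (0.84 ± 0.12). Pmf1, a subunit of the MIS12 complex, had 35.55 and 29.30 FPKM in knockout and 18.56 and 19.27 FPKM in wild type (0.87 ± 0.15). Of 16 mitotic entry and exit genes 9 rose (56.2%) and 2 fell (12.5%), against 23.0% and 20.8% of all tested genes. With DESeq2 6 rose and 1 fell. Cdca3, which promotes the turnover of WEE1, had 36.2 and 32.6 FPKM in knockout and 14.8 and 16.3 FPKM in wild type (1.25 ± 0.13). Wee1, the kinase that holds CDK1 inactive, fell to 2.69 and 1.81 FPKM in knockout, against 9.28 and 8.09 FPKM in wild type, a log2 fold change of -1.85 ± 0.21 (adjusted p = 0.000178). Ensa, an inhibitor of the phosphatase PP2A, had 48.8 and 45.7 FPKM in knockout and 59.7 and 64.4 FPKM in wild type (-0.29 ± 0.09), a call lost in 5 of 17 alternatives.

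Of 16 anaphase promoting complex subunits and regulators 1 rose, Anapc15, 1 fell, Anapc2, and 87.5% were not called, against 56.3% of all tested genes. Anapc15 had 19.9 and 17.6 FPKM in knockout and 9.91 and 10.08 FPKM in wild type (1.05 ± 0.20). Anapc2 had 25.2 and 27.4 FPKM in knockout and 33.8 and 39.5 FPKM in wild type (-0.38 ± 0.11), a call lost without knockout replicate 1 and without wild-type replicate 2. Anapc13, the most abundant, had 96.4 and 99.7 FPKM in knockout and 116.8 and 129.5 FPKM in wild type (adjusted p = 0.142), and was called lower in 6 of 17 alternatives, with library totals (adjusted p = 0.044) and in the 5 limma fits (adjusted p from 0.00385 to 0.0236). Of 17 condensin, cohesin and separase genes 2 rose (11.8%) and 2 fell (11.8%), against 23.0% and 20.8% of all tested genes. Their median log2 fold change was -0.03. With DESeq2 1 rose and 2 fell, and with limma on quantile normalized FPKM 3 rose and 0 fell. The condensin subunit Ncaph had 8.52 and 8.51 FPKM in knockout and 5.41 and 6.26 FPKM in wild type (0.65 ± 0.16). The cohesin loader Nipbl had 6.17 and 6.19 FPKM in knockout and 8.85 and 9.45 FPKM in wild type (-0.46 ± 0.09). The cohesin subunit Rad21 had 36.1 and 31.5 FPKM in knockout and 40.02 and 38.54 FPKM in wild type (adjusted p = 0.39). Of 48 further kinesin, centrosome and spindle genes 11 rose (22.9%) and 2 fell (4.17%), against 23.0% and 20.8% of all tested genes. Where all 4 libraries were kept and all 48 were tested, the alternatives called 11 to 18 higher. Among the 20 with a mean FPKM of at least 5, 5 rose. Gtse1 had 6.93 and 6.60 FPKM in knockout and 2.74 and 2.67 FPKM in wild type (1.43 ± 0.20). Arhgap11a had 9.41 and 8.75 FPKM in knockout and 5.21 and 4.48 FPKM in wild type (1.01 ± 0.13). The abundant Ndel1 had 35.6 and 34.5 FPKM in knockout and 40.31 and 38.77 FPKM in wild type (-0.07 ± 0.09, adjusted p = 0.561).

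**Figure D4:**
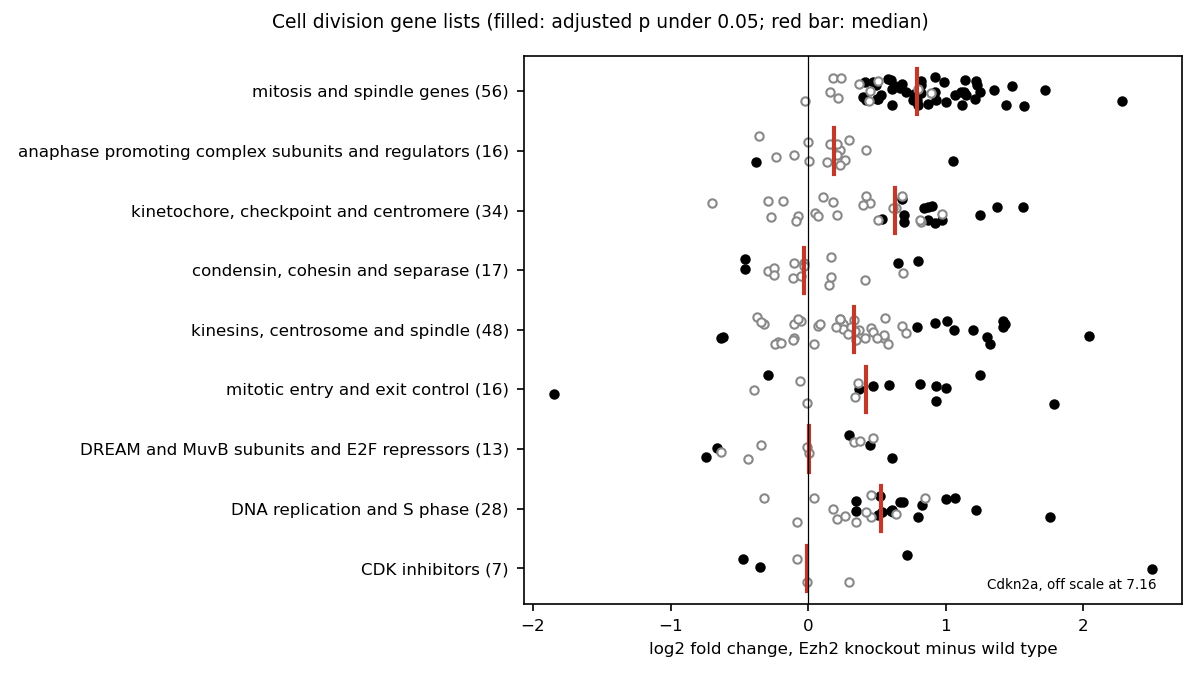
Log2 fold change (knockout minus wild type, horizontal axis) of each gene in the mitosis and spindle list and in 8 other lists, with the number of genes in brackets, filled points for genes called at an adjusted p under 0.05, vertical scatter for legibility and a red bar at the median. The medians are 0.79 for the mitosis and spindle genes, 0.53 for DNA replication and S phase, 0.19 for the anaphase promoting complex and -0.03 for condensin and cohesin; Cdkn2a, at 7.16, is drawn at the edge.

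DNA replication and S phase genes, which act before mitosis, rose in 16 of 28 cases (57.1%) with 0 lower, against 23.0% and 20.8% of all tested genes. Their median log2 fold change was 0.53, and 11 to 20 rose under the alternatives. Rrm2, a subunit of ribonucleotide reductase, had 25.8 and 19.5 FPKM in knockout and 7.39 and 6.94 FPKM in wild type (1.76 ± 0.17). Fen1, a flap endonuclease, had 19.75 and 18.02 FPKM in knockout and 9.33 and 9.74 FPKM in wild type (1.07 ± 0.13). Pcna, the sliding clamp, was the most abundant at 114.6 and 103.0 FPKM in knockout and 82.5 and 78.4 FPKM in wild type (0.54 ± 0.10). The difference between the S phase and mitosis lists was not tested. Of 13 DREAM, MuvB and E2F repressor genes 3 rose (23.1%) and 2 fell (15.4%), against 23.0% and 20.8% of all tested genes. With DESeq2 1 rose, and with library totals 0 rose. Rbl2 (p130), the pocket protein of DREAM in resting cells, fell by 0.74 ± 0.15 (adjusted p = 0.00445), to 6.86 and 6.18 FPKM in knockout, against 13.5 and 10.2 FPKM in wild type. Tfdp2 had 4.80 and 3.28 FPKM in knockout and 6.68 and 6.97 FPKM in wild type (-0.66 ± 0.17). E2f4 had 34.1 and 32.4 FPKM in knockout and 26.9 and 31.1 FPKM in wild type (0.30 ± 0.11, adjusted p = 0.0498), a call lost in 15 of 17 alternatives. Of 7 CDK inhibitors 2 rose (28.6%) and 2 fell (28.6%), against 23.0% and 20.8% of all tested genes. The 2 that fell were Cdkn1b, by 0.47, and Cdkn2b, by 0.35 on the log2 scale. The count that fell was 1 without knockout replicate 2 and without wild-type replicate 2, and 0 without wild-type replicate 1. Cdkn2a, a cell cycle inhibitor locus that Polycomb silences, had 32.5 and 34.7 FPKM in knockout and 0.22 and 0.21 FPKM in wild type, and Cdkn1a (p21) had 232.1 and 269.9 FPKM in knockout and 153.6 and 173.3 FPKM in wild type (0.72 ± 0.10).

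Markers of several cell types moved with genotype, and their part in the rise of the mitosis genes was not tested. Colon epithelial markers were high in all 4 libraries, with summed FPKM of 9441.1 and 9810.7 in knockout and 8145.5 and 8492.1 in wild type; 6 of 8 rose, among them Krt20 of differentiated cells by 1.25, Krt18 by 0.68 and Krt8 by 0.30 (a call lost in 5 of 17 alternatives), and 2 fell, Epcam and Cdh1, of which 1 was called without knockout replicate 2 and without wild-type replicate 1. Markers of crypt stem and progenitor cells summed to 38.8 and 38.5 FPKM in knockout and 56.9 and 55.9 FPKM in wild type; of the 7 tested 1 rose (0 without wild-type replicate 2), Sox9 and Axin2 fell by 1.61 and 1.08 on the log2 scale, and Olfm4 was at 0 in both wild-type libraries. All 9 tested T and NK cell markers rose, and 7 of these 9 were called higher with DESeq2 and with library totals. The list had sums of 80.7 and 78.0 FPKM in knockout and 19.9 and 19.0 FPKM in wild type. Gzmb rose by 5.18 and Cd8a by 2.88 on the log2 scale. Ptprc rose by 0.38, a call lost in 12 of 17 alternatives. Nkg7 was at 0 in 1 wild-type library, and Trac was listed in no file. Neutrophil markers summed to 155.4 and 131.7 FPKM in knockout and 6.95 and 10.3 FPKM in wild type, of which 3 of 4 tested rose, S100a8 by 5.51 and S100a9 by 5.49, and Mpo and Elane were listed in no file. Macrophage and dendritic cell markers rose in 5 of 7 cases (3 without wild-type replicate 1), C1qb by 0.92, C1qa by 0.72 and Lyz2 by 0.44, with sums of 358.2 and 408.8 FPKM in knockout and 263.5 and 287.3 FPKM in wild type.

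Other markers went the opposite way or both ways. Of 7 fibroblast and smooth muscle markers 6 fell, Myh11 by 1.06, Acta2 by 1.02 and Tagln by 1.02 on the log2 scale. With DESeq2 5 fell, and with limma on log2(FPKM + 1) 7 fell. The 7 had sums of 839.8 and 1084.8 FPKM in knockout and 1884.2 and 2068 FPKM in wild type. Of 3 endothelial markers 2 fell, Kdr by 0.86 and Pecam1 by 0.45; 0 were called without wild-type replicate 1, and 1 without knockout replicate 1 and without wild-type replicate 2. The 3 had sums of 8.74 and 10.6 FPKM in knockout and 15.4 and 14.2 FPKM in wild type. Both tested erythroid markers, the globin genes Hba-a1 and Hbb-bs, fell. Hba-a1 was at 10.9 and 23.3 FPKM in knockout, against 67.1 and 38.6 FPKM in wild type, and Hbb-bs was at 2.22 and 3.54 FPKM in knockout, against 13.4 and 11.2 FPKM in wild type. Hbb-bt and Alas2 were at 0 in at least 1 library. Of 7 B and plasma cell markers 2 rose, Mzb1 by 1.64 and Jchain by 0.95, and 4 fell (2 without knockout replicate 1 and without either wild-type library in turn), with sums of 335.2 and 410 FPKM in knockout and 309.8 and 293.2 FPKM in wild type.

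**Figure D5:**
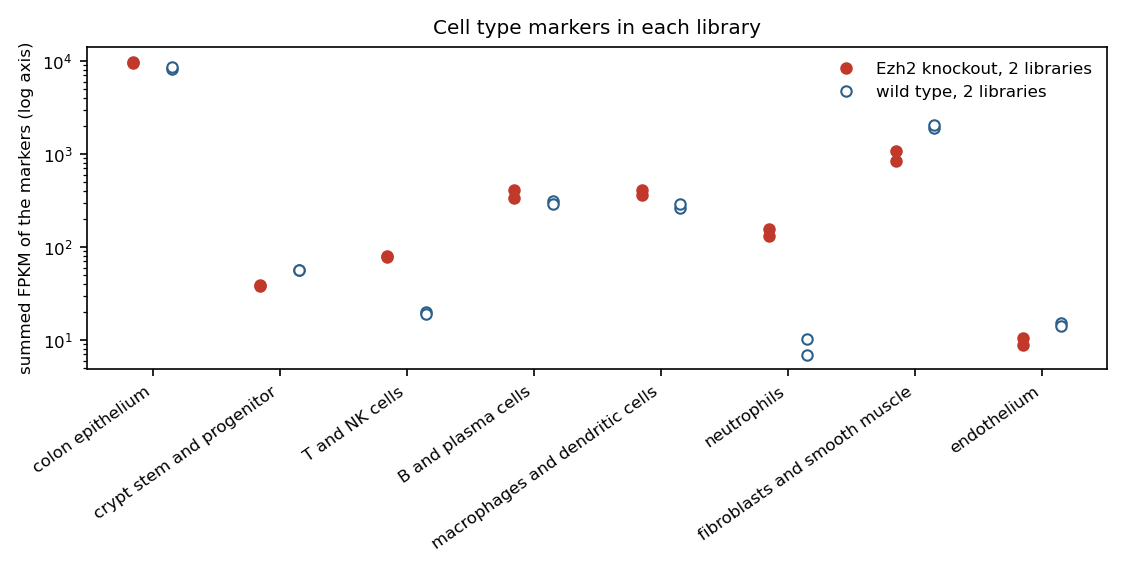
Summed FPKM (vertical log axis) of the markers of 8 cell types in each library, with filled points for the 2 knockout libraries and open points for the 2 wild-type libraries. T and NK cell and neutrophil sums are higher in knockout and fibroblast, endothelial and crypt progenitor sums lower, while the epithelial sums are the highest in every library.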

How the data were processed

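RNA of primary mouse colon epithelial cells was sequenced in 2 libraries per genotype; groups and replicate numbers come from the labels. Trizol extraction and Illumina TruSeq libraries are stated, per the labels' protocols. The authors deposited 1 table per library with transcripts, length, an expected count (an estimated count that need not be whole) and FPKM per gene, per the file headers. Of the deposited counts 78.8% to 80.2% were whole, with no tolerance. The submitters' processing notes name Bowtie2, BWA and the human build hg19, with no roles; the sources used here do not name the quantifier. The deposited transcripts are mouse RefSeq accessions, and 18820 of 18872 identifiers matched the RefSeq gene table. The only coordinates given are those of RefSeq's promoter windows.

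Genes missing from a file were taken as 0. Rounded counts entered R 4.3.3 and edgeR's quasi-likelihood test (version 4.0.16, glmQLFit and glmQLFTest, two-sided, without a block) after filterByExpr and TMM scaling. Standard errors were derived from F, as the size of the log2 fold change over its root. Common dispersion was 0.0166. Alternatives used DESeq2 1.42.0 and limma 3.58.1. A chi-square test of counts gave 2.95 per degree of freedom for the knockout pair, 2.18 for the wild-type pair and 38.25 to 44.59 between groups, so libraries were kept separate. The fit was also run on simulated counts with few changed genes, balanced up and down. That run does not bear on the choice of scaling. Replicate numbers were not taken as pairs. The members and gene lists were chosen with earlier results of these data known. Every member is accounted for; values in every library are given for the most abundant, the smallest-p and the uncalled members of each role, and for the 2 smallest-p and the most abundant genes of the other cell division lists, while marker lists are given by their sums and the fold changes of such genes. Proteins were not analysed here, and 1 marker gene, with the sum of its list, is not reported here. Cdk1, Mybl2, Mki67, Aurkb, Rbl2 and Wee1 are also given with library values; where the rule does not name them, they were picked with their values known.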

Additional observations from a re-analysis of the deposited data

How the results depend on the processing

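The count of members higher in knockout, 45, was 48 with the replicate number as a block, 37 with DESeq2, 41 with library totals, 35 to 37 with limma on log2 FPKM at pseudocounts of 0.01, 0.1 and 1, and 32 on FPKM rescaled to equal totals. The count of members lower was 0 in all 17 alternatives. Without a library the count of members higher ranged from 35 to 45, genes higher over the whole table from 2442 to 3053, and genes lower from 2133 to 2711. These are within 1.5 times of the values reported. The median log2 fold change of the members, 0.79, was 0.57 with limma on log2(FPKM + 1), 0.66 with a pseudocount of 0.1 and 0.51 on rescaled FPKM; the cause was not tested. Without a library it ranged from 0.67 to 0.91. The sign of 4 uncalled members turned: Hmmr to -0.0045 and Nusap1 to -0.02 on rescaled FPKM, Stmn1 to -0.03 on quantile normalized FPKM, and Pttg1 to 0.045 without knockout replicate 1 and 0.19 without wild-type replicate 2, within a range of -0.2 to 0.19 without a library. Over the named genes and alternatives, 1542 of 1696 comparisons kept direction and call, 136 lost the call, 13 gained it and 5 changed sign.

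Same-numbered libraries deviated together (r = 0.571 across 13608 genes, 0.264 across the 12991 with the same transcripts in all files, which is across genes and not samples), but with 2 pairs and no label for a shared batch the numbers were not taken as pairs. With the replicate block 3855 genes were higher and 3548 lower, and the members Ect2, Nuf2 and Stmn1 were also called. Cenpn, with 10 to 25 counts a library, had a wide standard error (0.89 ± 0.39). It was called in 1 of the 16 alternatives that tested it, limma on quantile normalized FPKM (0.66, adjusted p = 0.0294). Whether depth kept members with few reads from being called was not tested.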

Other observations

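Promoter letters and calls were also set side by side over genes outside the list, as counts with no test. Of 44 genes of the 5 other cell division lists with CHR letters in a window, 17 rose (38.6%) and 0 fell, and of the 64 without these letters 15 rose (23.4%) and 4 fell. With both CHR and CCAAT letters 13 of 29 rose (44.8%). Over tested genes in neither the mitosis list nor these lists, the share that rose was 23.2% of 1727 with CHR letters and 22.7% of 8926 without them. With E2F letters, 15 of 78 such genes rose (19.2%) and 15 fell.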
